A study of Mus musculus with 16 samples.

Results

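The genes described here are 10 that build the junctions between intestinal epithelial cells. They are the claudins Cldn2, Cldn3, Cldn4, Cldn7 and Cldn15, the tight junction scaffold Tjp1 (ZO-1), occludin (Ocln), junctional adhesion molecule A (F11r), and the cadherins Cdh1 (E-cadherin) and Cdh17 (LI-cadherin). They were chosen by symbol as known junction genes, by a rule that uses no measured value, though with earlier results of these data known. Each of the 10 was found once among the 48440 genes listed for each segment. RNA-Seq was performed on GFP+ cells sorted from the duodenum, jejunum and ileum of Lgr5eGFP mice, in which EGFP is expressed from the Lgr5 locus and marks intestinal stem cells (ISCs) and their nearest progeny. All of the mice, controls included, were female and had eaten a 60% high-fat diet for 16 weeks before vertical sleeve gastrectomy (VSG), which removes most of the stomach, or sham surgery; the study's methods give an age of 8 to 16 weeks for all of its animals, without saying at which point. Cells were taken 4 weeks after surgery, from overnight-fasted mice killed 15 minutes after a liquid meal, from 6 cm of each segment, after CD45+, CD31+, annexin V+ and Sytox+ cells had been removed. In all, 16 libraries came from 7 mice, 5 with VSG and 2 with sham surgery: for the upper segments 4 VSG and 2 sham mice each gave a duodenal and a jejunal library, and for the ileum 2 mice of either surgery gave 1.

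Tight junctions seal the space between neighbouring epithelial cells near their apical edge. Claudins set which ions pass: Cldn2 and Cldn15 form channels for cations and water, whereas Cldn3, Cldn4 and Cldn7 are usually counted among the sealing claudins. Occludin and junctional adhesion molecule A are further membrane proteins of the tight junction, and ZO-1 ties these proteins to the actin cytoskeleton. Below the tight junction, E-cadherin holds cells together in the adherens junction, and LI-cadherin is an intestinal cadherin of the lateral membrane. In the intestine Cldn2 is known as a claudin of the crypt, where the stem cells lie.

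The libraries differed in ways that the groups do not describe. In the jejunum, VSG replicate 1 had 196951 normalized counts of Fabp6, the ileal bile acid binding protein, against 15.8 to 312.7 in the other 5 jejunal libraries, and 322.2 of Gata4, a factor of the proximal intestine, against 4619 to 6380. Sham replicate 1 of the jejunum was listed at 0 for Lgr5 and had 7345 normalized counts of the stem cell gene Olfm4 against 18164 to 33820, and its 8 stem cell markers summed to 279.1 CPM (normalized counts per 1000000 of the library sum) against 959.0 to 1531. Its 12 enterocyte markers summed to 49873 CPM, against 16433 to 29041 in the other jejunal libraries. Sham replicate 1 of the ileum was also listed at 0 for Lgr5. Epcam, which marks epithelial cells, was at 1001 to 2166 CPM in the 16 libraries, whereas the summed markers of immune cells (10 genes) reached at most 35.5 and those of stroma (6 genes) 47.1 CPM, and those of endothelium (6 genes) lay below both. Markers of neighbouring organs reached higher sums in the duodenum. The 8 pancreatic acinar markers summed to 195.3 CPM in VSG replicate 3, 41.5 in VSG replicate 2 and 0 to 5.70 in the other duodenal libraries. The 7 stomach markers reached 76.5 CPM, in duodenal sham replicate 2. Depth, inferred from the commonest lowest value of each library, was 10.9 to 63.6 M reads. In these bulk samples fewer cells of a type and less RNA per cell cannot be told apart.

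Of the 10 genes, 8 have a promoter window in RefSeq (GRCm38.p6), and 2 are shown because they lie at the ends of the pattern described further on: Cldn2 had the widest difference between VSG and sham in the jejunum, and Cldn4 in the ileum. Each window is the 250 bases upstream of the start of transcription, 5′ to 3′ on the gene's strand, and capitals mark a GC box. The Cldn2 window is chrX:139800558-139800807 on the plus strand and the Cldn4 window chr5:134946935-134947184 on the minus strand. 0 bases of either window lie in an annotated exon.
Cldn2: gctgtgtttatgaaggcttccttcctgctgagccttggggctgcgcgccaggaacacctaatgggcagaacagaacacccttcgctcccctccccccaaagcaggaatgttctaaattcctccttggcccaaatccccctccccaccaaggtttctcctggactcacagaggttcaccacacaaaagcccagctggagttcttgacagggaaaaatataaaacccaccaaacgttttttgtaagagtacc
Cldn4: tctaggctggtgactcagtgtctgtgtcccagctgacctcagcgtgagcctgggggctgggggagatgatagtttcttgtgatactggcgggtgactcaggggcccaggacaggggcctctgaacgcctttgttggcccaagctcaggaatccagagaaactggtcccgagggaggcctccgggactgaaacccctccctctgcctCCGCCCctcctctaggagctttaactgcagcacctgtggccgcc
The windows were searched on both strands for the GC box of SP and KLF factors, GGGCGG, for the site of the Wnt effectors TCF and LEF, written ATCAAAG, and for that of the intestinal CDX factors, written TTTATNG. The GC box was in 6 of the 8 windows, those of Cldn3, Cldn4, Cldn15, Tjp1, Ocln and F11r, against 32.7% of 32841 promoter windows, and was not in those of Cldn2 and Cldn7. In Cldn4 it began 44 bases before the start. The other letters were in 0 of the 8 windows, and their shares among all windows were 3.21% for TCF and LEF and 9.81% for CDX. The GC content was 52.0% for Cldn2, 51.2% for Cldn7 and higher in the other 6, up to 64.0% for Ocln, beside a median of 52.4% over all windows. A match is a stretch of letters and not a measured binding site.

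All 10 genes were present in all 16 libraries, at levels that differed widely between them. Levels of different genes are compared per length, as CPM per kb of the longest coding transcript (GENCODE M21, GRCm38), a scale that takes no account of which transcript was used. Cldn7 had the highest median in each segment, at 415.4 (duodenum), 477.4 (jejunum) and 679.9 (ileum). Cldn3 followed with 264.7, 336.4 and 425.7, Cdh17 with 264.3, 316.4 and 406.6, Cldn15 with 232.8, 243.6 and 185.3, and Cdh1 with 161.5, 165.4 and 168.8. These 5 were the most abundant in every segment. F11r, Cldn2 and Ocln came next, with duodenal medians of 52.9, 51.7 and 26.8, then Tjp1 with 12.1 and Cldn4 with 5.89. The order was the same in the 3 segments except that Ocln (29.6) and Cldn2 (28.0) changed places in the jejunum. In each segment the ranges over libraries overlapped for 7 of the 9 pairs of neighbours in this order. Such overlap takes no account of both genes being measured in the same libraries, so it does not show that neighbours were alike. Cldn7, for example, was above Cldn3 in every jejunal and ileal library although their ranges overlapped there. Cdh1 lay above F11r without overlap in all 3 segments. Cldn7 stood clear of Cldn3 in the duodenum, F11r of Ocln in the jejunum and Cdh17 of Cldn15 in the ileum.

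**Figure D1:**
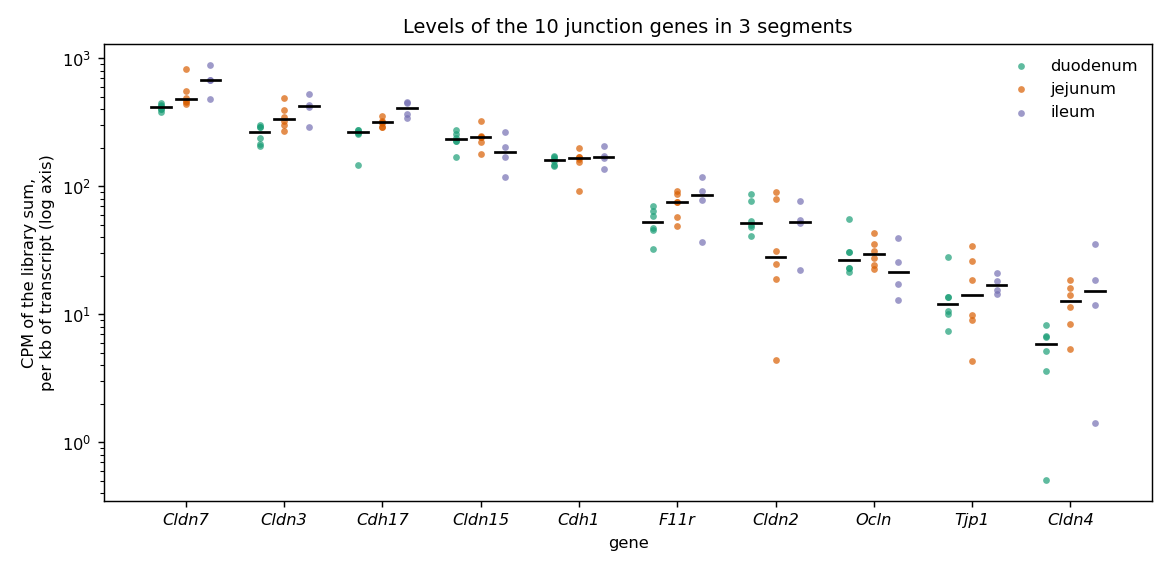
CPM of the library sum per kb of the longest coding transcript (log axis) for each gene, with 1 point per library coloured by segment and a bar at the median. Cldn7, Cldn3, Cdh17, Cldn15 and Cdh1 lie above the other 5 genes in median, and Cldn4 is lowest in every segment.

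Along the intestine, Cdh17, Cldn3 and Cldn7 had higher levels toward the ileum. The 3 tables were normalized separately, so levels are given as CPM, as a description with no test, and each mouse is compared with itself. The sorted cells differed along the same axis. The 8 stem cell markers summed to 1348 to 2687 CPM in the duodenal libraries and to 231.6 to 584.2 in the ileal ones. The 6 proliferation markers summed to 549.0 to 991.5 and to 108.7 to 278.0 CPM. The part of these differences in the levels below was not tested. Duodenal levels of Cdh17 were 506.0 to 953.2 CPM, jejunal levels 1007 to 1217 and ileal levels 1194 to 1572. Its duodenal range overlapped neither of the others. It was higher in the jejunum than in the duodenum in 6 of 6 mice and higher in the ileum than in the jejunum in 3 of 3, with median log2 differences of 0.25 and 0.15. Cldn3 was at 262.4 to 383.1 CPM in duodenum, 338.6 to 619.4 in jejunum and 369.4 to 664.8 in ileum. Its jejunal level was above the duodenal level in 6 of 6 mice and its ileal level above the jejunal in 2 of 3. Cldn7 was at 507.2 to 596.5, 590.2 to 1113 and 643.1 to 1191 CPM, higher in the jejunum in 5 of 6 mice and higher again in the ileum in 3 of 3. The highest jejunal value, 1113, came from VSG replicate 1, the library with ileal markers. Without that mouse the median log2 difference of Cldn7 from the duodenum was 0.27, the same as with it. For Cdh17 it was 0.18 rather than 0.25, and for Cldn3 0.26 rather than 0.32. The same mouse had the lowest duodenal values of Cdh17 and Cldn3 and the highest jejunal value of Cldn3.

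These directions are relative ones. The median of all genes also shifted between tables, by -0.24 on the log2 scale from duodenum to jejunum and by -0.72 from duodenum to ileum in CPM. In the deposited normalized counts it shifted by -0.70 and -1.92. More genes were listed at 0 in the ileal libraries (71.2% to 78.1%) than in the duodenal ones (65.1% to 68.9%). The part of these zeros in the shift was not tested. On the deposited scale the ileal minus duodenal difference was -0.62 for Cdh17, -0.30 for Cldn3 and -0.20 for Cldn7, the opposite sign to that in CPM. Relative to the median of all genes, the 3 genes were higher in the ileum than in the duodenum in 3 of 3 mice. The differences in CPM were 1.15 for Cdh17, 1.52 for Cldn3 and 1.57 for Cldn7. The deposited counts gave 3 of 3 too, but they differ from CPM by 1 factor per library and are no separate evidence. This was not particular to the 3 genes: Tjp1 (1.28), Cldn2 (1.06) and Cdh1 (0.72) were also higher in 3 of 3 mice. The remaining genes had medians above 0, from 0.015 (Cldn15) to 1.52 (Cldn4), each in 2 of 3 mice in CPM.

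Cldn2 followed another course, with its lowest levels in the jejunum. It was at 123.6 to 264.1 CPM in duodenum, 13.5 to 276.9 in jejunum and 67.5 to 234.6 in ileum, and its jejunal level was below the duodenal level in 5 of 6 mice, by a median of -0.87 on the log2 scale. The exception was VSG replicate 1, and VSG replicate 3 differed little, at 264.1 in the duodenum and 240.8 in the jejunum. Its ileal level was above the jejunal level in 3 of 3 mice. Cldn15, the other pore-forming claudin, was close to level from duodenum to jejunum (medians of 442.8 and 463.3 CPM) and lower in the ileum (median 352.4), in 3 of 3 mice. Against the falling median of all genes this ileal difference from the jejunum was -0.062 in CPM and 0.063 in the deposited counts, so its sign depended on the scale. Ocln was also lower in the ileum than in the jejunum in 3 of 3 mice, by a median of -0.92 in CPM, or -0.45 relative to the median of all genes.

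Cdh1 had medians of 715.4, 732.5 and 747.8 CPM in duodenum, jejunum and ileum, and was higher in the ileum than in the jejunum in 3 of 3 mice (median log2 difference 0.43, but -0.35 in the deposited counts). Tjp1 had medians of 85.2, 100.5 and 118.8 CPM, with more in the jejunum than in the duodenum in 3 of 6 mice and more in the ileum than in the duodenum in 3 of 3 (median log2 difference 0.56, but -0.49 in the deposited counts). F11r had medians of 133.2, 190.5 and 215.3 CPM, and was higher in the jejunum in 5 of 6 mice. Cldn4 had medians of 10.7, 23.1 and 27.5 CPM and was higher in the jejunum than in the duodenum in 5 of 6 mice, but from jejunum to ileum in 1 of 3. These 4, and also Cldn2, Cldn3, Cldn15 and Ocln, had overlapping ranges between all pairs of segments.

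**Figure D2:**
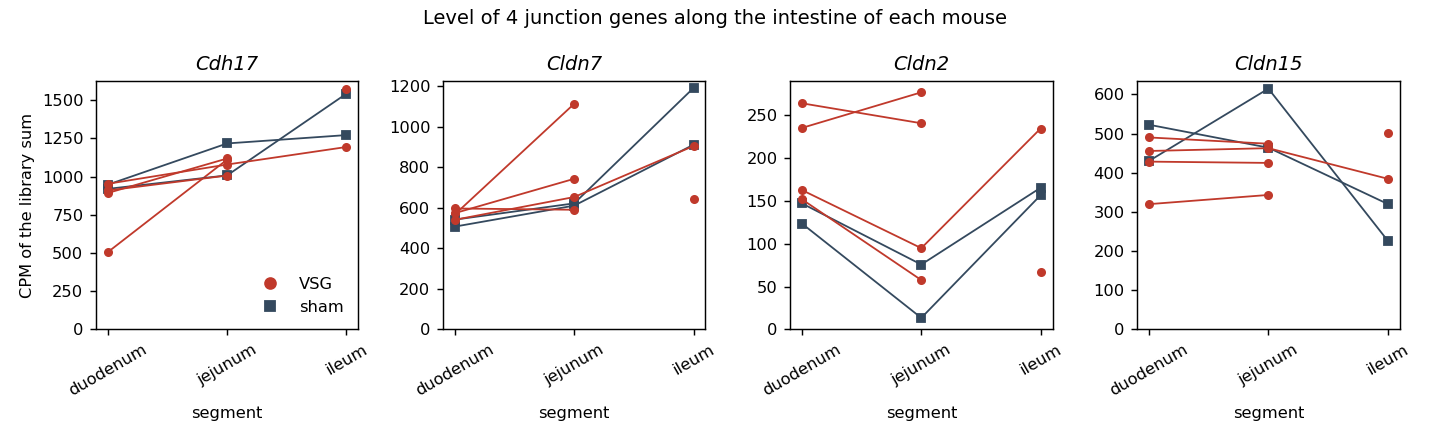
CPM of the library sum (axis from 0) for 4 junction genes in the segments of each mouse, 1 line per mouse, VSG in red circles and sham in dark squares. Cdh17 is higher in the jejunum than in the duodenum in 6 of 6 mice, and Cldn2 lower in 5 of 6.

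VSG was compared with sham within each segment, which asks whether surgery changed these genes in the sorted cells. None of the 10 genes passed the study's thresholds in any segment with limma (p under 0.05, adjusted p under 0.2, log2 fold change above 0.5 in size and mean above 50). Over all genes tested, the share called was 0.0237% for duodenum, 0.0126% for jejunum and 0% for ileum. The study, using DESeq2 at these cut-offs, reported far more genes in each segment, so the limma calls do not repeat its calls. With so few genes called here, the absence of the 10 among them says little about these genes. At an unadjusted p under 0.05 the duodenal count was 1 of 10 (6.27% of all genes), the jejunal count 2 of 10 (6.04%) and the ileal count 0 of 10 (3.28%). VSG and sham libraries did not overlap for 2 of 10 duodenal, 2 of 10 jejunal and 4 of 10 ileal comparisons, where 14.4%, 12.8% and 28.6% of all genes did not overlap. These shares are near those of all genes. In each segment 5 of the 10 were higher and 5 lower as deposited (some of the small differences reversed under other scalings), with a median log2 difference of -0.13 (duodenum), -0.10 (jejunum) and 0.14 (ileum), beside 0.0086, 0.11 and 0.24 over all genes. With 2 sham libraries per segment the smallest two-sided p of an exact permutation test was 0.0667 in the duodenum and jejunum and 0.333 in the ileum, so no single gene could reach 0.05 in that test.

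**Figure D3:**
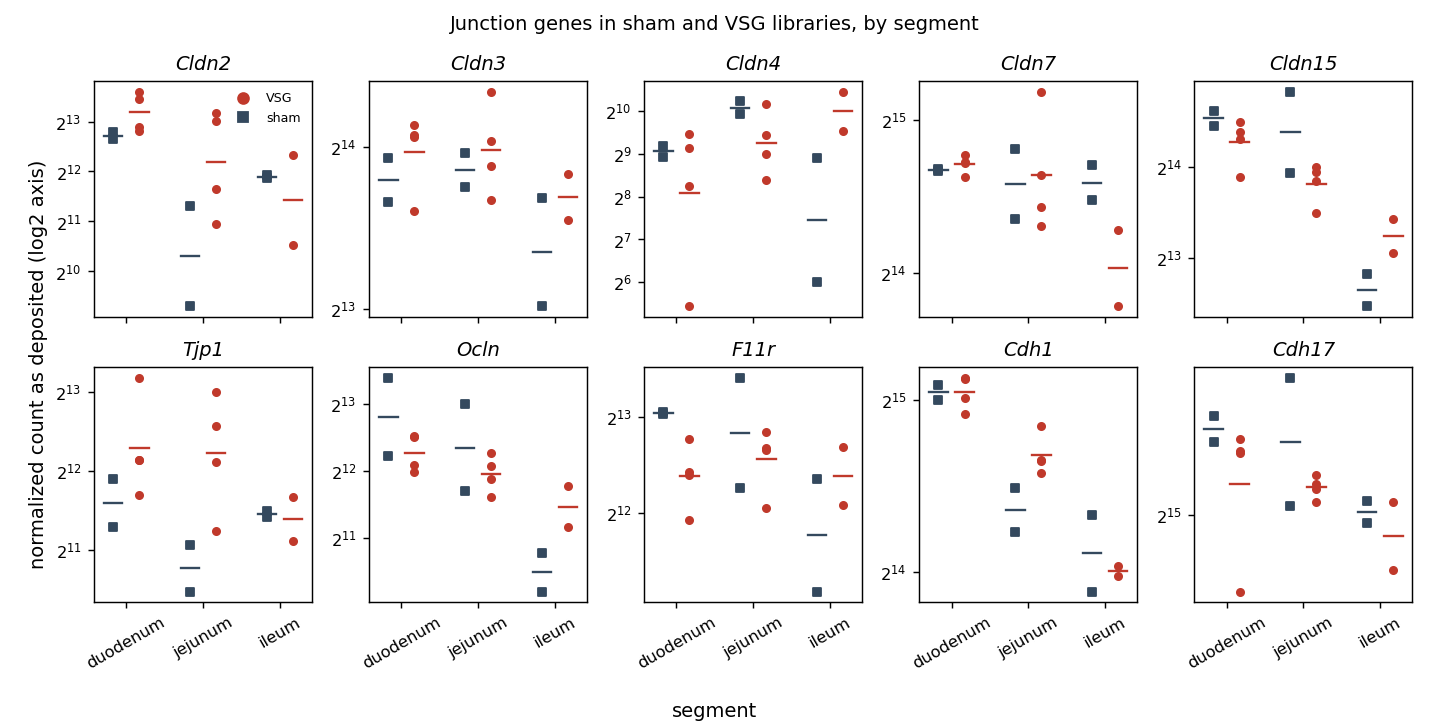
DESeq2-normalized count (log2 axis, scaled for each gene) in each library by segment, sham in dark squares and VSG in red circles, with a bar at the mean of the log2 values. F11r in the duodenum and Tjp1 in the jejunum are among the comparisons whose groups do not overlap, and Cldn4 and Cldn2 have the widest spread within groups.

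In the duodenum F11r was lower and Cldn2 higher in all VSG libraries than in both sham libraries. F11r had 3888, 7008, 5528 and 5382 normalized counts in the 4 VSG libraries, in order of replicate, and 8373 and 8494 in sham. All 4 VSG values lay below both sham values, and the log2 difference was -0.66 (SE 0.26), with an adjusted p of 0.705 with limma and p = 0.133 in the exact permutation test. It stayed between -0.79 and -0.51 under the 11 alternatives tried. The 12 enterocyte markers also summed lower in the VSG libraries, at 7426 to 15260 CPM against 16864 and 22907 in sham, and the 6 tuft cell markers higher, at 276.9 to 578.2 against 83.6 and 193.5; their part in the result was not tested. Cldn2 had 11171, 7172, 12377 and 7630 normalized counts in the VSG libraries and 6394 and 7058 in sham. The lowest VSG value was 7172 and the highest sham value 7058, so the groups were only just apart, and the log2 difference was 0.47 (SE 0.27, adjusted p = 0.863 with limma).

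The other duodenal genes overlapped between the groups. Tjp1 had 9319, 4537, 3315 and 4539 normalized counts after VSG and 3845 and 2506 after sham, a log2 difference of 0.69 (SE 0.39), or 0.40 without VSG replicate 1, the highest library. Cldn4 had 43.6, 707.5, 306.5 and 560.9 after VSG and 487.9 and 586.1 after sham. A single library, VSG replicate 1, set this difference, which was -0.98 (SE 1.06) with it and -0.11 without it. Ocln had 4074 to 5901 in the VSG libraries and 4804 and 10813 in sham, a log2 difference of -0.54 (SE 0.34) that was 0.050 without sham replicate 2. Cldn15 (-0.26), Cdh17 (-0.32), Cldn3 (0.17), Cldn7 (0.039) and Cdh1 (0.0014) had 95% intervals that included 0. Without VSG replicate 1 Cdh17 was -0.11, Cldn15 -0.14 and Cldn3 0.29, and without sham replicate 2 Cldn15 was -0.18 and Cldn3 0.036; without sham replicate 1 Cldn3 was 0.31. For Cdh1 the 95% interval was -0.45 to 0.45 and for Cldn7 -0.39 to 0.47 on the log2 scale.

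In the jejunum the pore-forming claudin Cldn2 and the scaffold Tjp1 were higher after VSG. Tjp1 had 6111, 2419, 8215 and 4427 normalized counts in the VSG libraries and 1423 and 2143 in sham. All 4 VSG values lay above both sham values, with a log2 difference of 1.46 (SE 0.48), or 1.35 relative to the median of all genes, an adjusted p of 0.760 with limma and p = 0.133 in the exact permutation test. Without the 2 libraries that stand apart, VSG replicate 1 and sham replicate 1, it was 1.05. Cldn2 had 9269, 1986, 8262 and 3212 normalized counts after VSG and 635.2 and 2554 after sham. The ranges overlapped, since VSG replicate 2 lay below sham replicate 2, and 3 of 4 VSG libraries lay above both sham libraries. The log2 difference was 1.88 (SE 0.71, adjusted p = 0.760 with limma), the largest of the 10 genes in this segment. It depended on sham replicate 1, the library listed at 0 for Lgr5: without it the difference was 0.88, without both libraries that stand apart 0.55, and with it as the only sham library 2.89. The 7 Paneth cell markers, which are also crypt genes, summed to 866.7 CPM in that sham library and to 3270 to 8608 in the other 5, and this was not tested as part of the result.

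Cdh1 was the other jejunal gene whose groups did not overlap, at 29539, 25667, 25618 and 24390 normalized counts after VSG and 19257 and 22975 after sham. Its log2 difference was 0.32 (SE 0.31), with p = 0.0667 in the exact permutation test, the smallest that test can give, and an adjusted p of 0.805 with limma. Without sham replicate 1 it was 0.19, and without the 2 libraries that stand apart 0.13.

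The jejunal differences of Cldn15, Ocln, F11r and Cdh17 rested on 1 sham library. Cldn15 had 11490, 14653, 16266 and 15661 normalized counts after VSG and 28951 and 15636 after sham, a log2 difference of -0.56 (SE 0.35) that was -0.12 without sham replicate 1. That library was also the highest for Ocln (8195 against 3123 to 4940 in the other 5), F11r (10873 against 4239 to 7374) and Cdh17 (57340 against 33983 to 38573). The log2 differences of -0.40 for Ocln, -0.28 for F11r and -0.27 for Cdh17 became 0.25, 0.29 and 0.11 without it. With sham replicate 2 left out instead, sham replicate 1 stood alone for sham, and the differences were -1.01 for Cldn15, -1.04 for Ocln and -0.64 for Cdh17. Cldn4 (-0.83, SE 0.62), Cldn3 (0.13, SE 0.32) and Cldn7 (0.059, SE 0.37) overlapped between the groups.

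The difference between the segments in the response to VSG was tested on each mouse's jejunal minus duodenal log2 value. For Cldn2 this value averaged -0.99 in the 4 VSG mice and -2.40 in the 2 sham mice, a difference of 1.41 (SE 0.61, adjusted p = 0.948 with limma, p = 0.20 in the exact permutation test). Without sham replicate 1 it was 0.48, and without sham replicate 2 it was 2.34, with 1 sham mouse left in either case. For Tjp1 the difference was 0.77 (SE 0.65), and for the other 8 it lay between -0.30 and 0.38. With limma 0 of the 10 genes and 0% of all genes passed, and at an unadjusted p under 0.05 the count was 1 of 10 beside 4.10% of all genes.

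**Figure D4:**
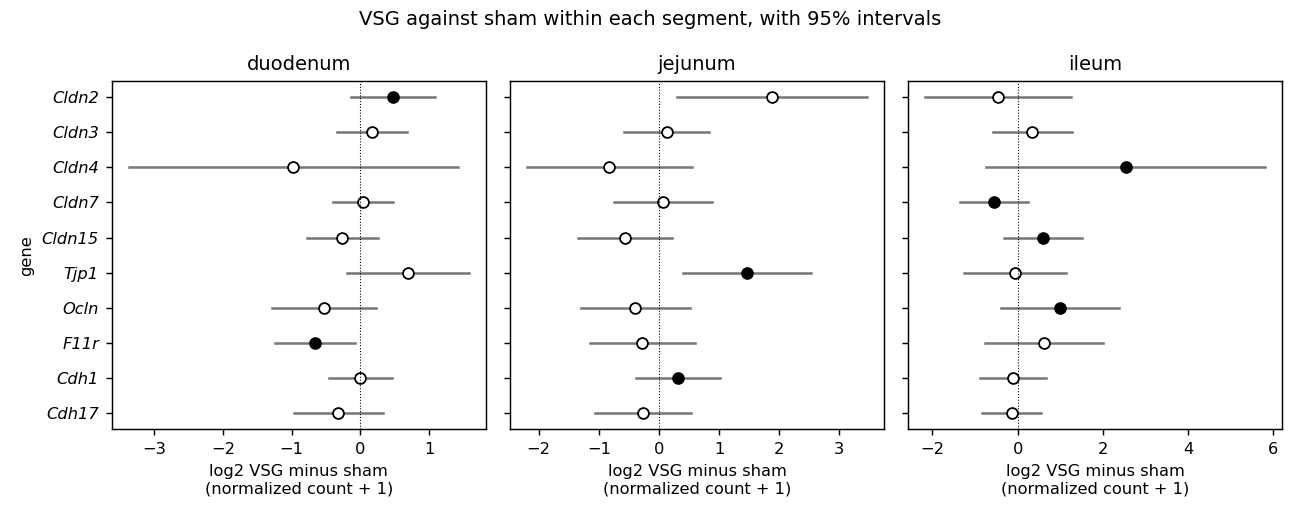
Difference of mean log2(normalized count + 1), VSG minus sham, with its 95% interval from limma for each gene and segment; filled points mark genes whose VSG and sham libraries did not overlap. The intervals of F11r in the duodenum and of Tjp1 and Cldn2 in the jejunum exclude 0 before adjustment, and no gene passed after adjustment over all genes.

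In the ileum 4 genes had groups that did not overlap, among 2 VSG and 2 sham libraries. Cldn4 had 744.2 and 1403 normalized counts after VSG and 64.1 and 478.4 after sham, a log2 difference of 2.53 (SE 1.32, adjusted p = 0.736 with limma). Without sham replicate 1, which was listed at 0 for Lgr5, it was 1.09. Ocln had 2291 and 3528 after VSG against 1754 and 1174, with a log2 difference of 0.99 (SE 0.56). Cldn15 had 8460 and 11024 after VSG against 5669 and 7204, with a log2 difference of 0.60 (SE 0.37). All 3 were higher in both VSG libraries. Cldn7 was lower, at 19897 and 14135 after VSG against 22778 and 26787, with a log2 difference of -0.56 (SE 0.32), or -0.31 without VSG replicate 5. Each of these 3 also had an adjusted p of 0.736 with limma, and none of the 4 genes reversed in the 8 alternatives tried. F11r had 6607 and 4346 after VSG and 2326 and 5239 after sham, so its groups overlapped, as did those of the remaining 5.

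Regional and cell type markers differed between the same ileal libraries. The 3 distal intestine markers summed to 3774 and 1602 CPM after VSG and to 9130 and 7209 after sham, the 8 stem cell markers to 584.2 and 470.2 against 231.6 and 316.6, and the 7 goblet cell markers to 8385 and 6583 against 3206 and 5930. None of these groups overlapped, and their part in the junction genes' values was not tested. The 12 enterocyte markers overlapped, at 17079 and 31027 after VSG and 31205 and 28692 after sham. The median difference over all genes in the ileum was 0.24 as deposited, 0.35 with each library scaled to the same total and 0.038 after quantile normalization, and in the jejunum 0.11, 0.34 and 0.033. Under 1 or other of those scalings Cdh17 reversed in the jejunum, and Cdh1, Tjp1 and Cdh17 in the ileum, where their differences as deposited were -0.27, -0.10, -0.060 and -0.14.

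The members varied together in blocks from library to library. After each segment's mean was taken away, Cldn4 and Cldn15 had the highest correlation of the 45 pairs over the 16 libraries (Pearson r = 0.72), followed by Cldn2 with Tjp1 (0.69) and Cldn15 with Cdh17 (0.65). Cldn2 and Cldn15, both cation channels, were the most opposed pair (-0.72). Cldn2 and Tjp1 correlated negatively with each of Cldn4, Cldn15, Ocln, F11r and Cdh17, in 10 of 10 pairs (-0.72 to -0.29), whereas those 5 correlated positively among themselves in 10 of 10 pairs (0.22 to 0.72). Without the 2 jejunal libraries that stand apart, over 14 libraries, the opposed pairs were still negative in 10 of 10 but smaller in size (-0.50 to -0.20), and the 5 were positive in 9 of 10. Cldn2 with Cldn15 was then -0.35, and Cldn4 with Cldn15 0.88. These values describe 16 libraries from 7 mice, which share mice, sorts and each table's normalization, and the blocks were seen first and then described. In single libraries, sham replicate 1 of the jejunum was lowest of 6 for Cldn2 and Tjp1 and highest for Cldn15, Ocln, F11r and Cdh17, and VSG replicate 1 of the duodenum was highest for Tjp1 and lowest for Cldn4, Cldn15, F11r and Cdh17, but second highest for Ocln (5901). The stem cell markers summed to 2687 CPM in that duodenal library, the highest of the 6 (1348 to 1979 in the others). In that jejunal library they summed to 279.1, the lowest of its 6. In sham replicate 1 of the ileum they summed to 231.6, the lowest of the 16 libraries. That library was the lowest ileal one for Cldn4, Cldn15 and F11r and second highest for Cldn2. The part of these markers in the blocks was not tested.

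**Figure D5:**
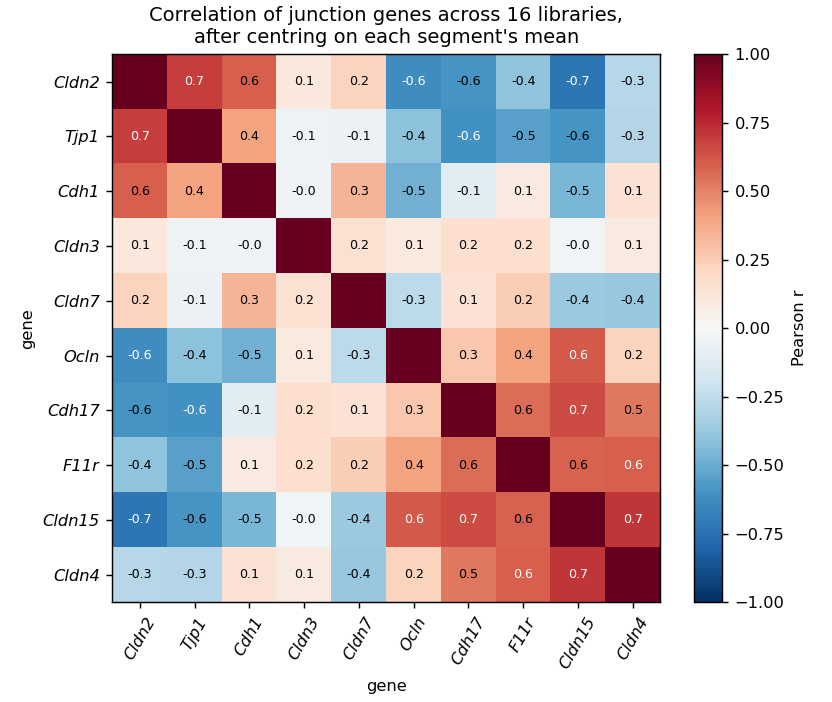
Pearson r (colour, from -1 to 1) between the junction genes over 16 libraries, on log2(normalized count + 1) centred on each segment's mean. Cldn2 and Tjp1 are negative against Ocln, Cdh17, F11r, Cldn15 and Cldn4, which are positive among themselves.

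Each member's correlation with the mean of the other 9 lay between -0.31 (Cldn2) and 0.42 (F11r). The 3 other genes whose pattern was most like the mean of all 10, out of 10702 compared, were Tmem184b (r = 0.89), Alg11 (0.89) and Otud7b (0.88), over 16 libraries. That mean was taken without scaling, so members with a wide spread, such as Cldn4, weigh most in it. It is not a pattern that the 10 genes share.

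Of the other junction genes, 84 were found by symbol, and 72 were tested in the duodenum and 67 each in the jejunum and ileum. Epcam had medians of 1377, 1402 and 1716 CPM in duodenum, jejunum and ileum, Cdhr5, a cadherin of the microvilli, 572.8, 1005 and 1548, and the claudin Cldn23 48.7, 65.5 and 74.8. These 3 do not stand for the list, since others had their lowest median in the ileum. Cldn12 had medians of 46.7, 40.7 and 23.4 CPM, and Nectin1 41.3, 45.6 and 8.59. None of these genes was called in any segment with limma. At an unadjusted p under 0.05, 1 was higher after VSG in the duodenum, 3 were higher and 1 lower in the jejunum, and 1 was higher and 1 lower in the ileum. These counts, 1 of 72, 4 of 67 and 2 of 67, stand beside 6.27%, 6.04% and 3.28% of all genes. The groups did not overlap for 10 of 72, 10 of 67 and 17 of 67, beside 14.4%, 12.8% and 28.6% of all genes, and the median log2 differences were 0.072, 0.00040 and -0.078.

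In the jejunum, Mllt4 (afadin), which links nectins to actin, had 4278 to 6767 normalized counts after VSG and 1897 and 2468 after sham, a log2 difference of 1.34 (SE 0.33, adjusted p = 0.760 with limma). Nectin2, an adhesion molecule bound by afadin, had 7431 to 10740 after VSG and 4040 and 4911 after sham, a difference of 0.92 (SE 0.31). Marveld2 (tricellulin) had 1688 to 3031 after VSG and 936 and 1128 after sham, a difference of 1.05 (SE 0.41). These 3 were higher in all 4 VSG libraries than in both sham libraries, as Tjp1 was. Nectin4 was lower in all 4 VSG libraries than in both sham libraries, at 0 to 48.7 after VSG and 84.3 and 511.8 after sham. Its level was low, with a median of 0.72 CPM and at most 10.9 over the 6 jejunal libraries, 3 of them listed at 0.

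In the duodenum Nectin1 had 1882 to 2604 normalized counts after VSG and 1154 and 1630 after sham, a log2 difference of 0.67 (SE 0.30, adjusted p = 0.792 with limma). In the ileum Cldn23 had 2497 and 3023 after VSG against 659.2 and 809.7, a difference of 1.91 (SE 0.58). Cdhr2, a cadherin of the brush border, had 20128 and 28178 after VSG against 44745 and 45252, a difference of -0.92 (SE 0.29); both had an adjusted p of 0.736 with limma.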

How the data were processed

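Each library is 1 segment of 1 mouse. RNA was polyA-selected and sequenced as single-end reads; reads were aligned to mm10 with STAR 2.5.3a and quantified with Salmon 0.6.0 by the authors, who deposited signal values, counts normalized with DESeq2 within each segment. Between 36.8% and 47.8% of non-zero values in a library were whole reads at 1 factor (tolerance 0.001), so no count model was used, and an exact 0 is given only as listed. Libraries the authors excluded for low mapping were not analysed here. The deposited fold changes and p-values per gene were not used.

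The 3 segments were fitted one by one with limma 3.58.1 (R 4.3.3, variance trend) on log2(normalized count + 1), which understates changes of low genes, over genes with a mean above 10 (16867, 15857 and 13853 genes), with Benjamini-Hochberg adjustment over all of them. Levels across segments are CPM, the normalized counts rescaled to a library sum of 1000000, and were not tested. The difference between segments was fitted on the jejunal value of a mouse minus its duodenal value (14718 genes). Exact permutation tests were two-sided over libraries or mice. Genes were named by rule: the 10 members everywhere, and at most 4 of the other junction genes per segment with the smallest p, among those with a p under 0.05. Epcam, Cdhr5 and Cldn12 were named outside this rule, for their levels. The members and lists were chosen with earlier results of these data known. Positions and transcript lengths came from GENCODE M21, which holds 48058 of the identifiers. Python 3.11.15 was used for the remaining steps, and the fit was checked on simulated data. Alternatives were another pseudocount (10), filter, scaling and variance model, the replicate number as a block, and dropping each library in turn; 1 more, leaving out the 2 jejunal libraries that stand apart, was chosen after seeing the data.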

Additional observations from a re-analysis of the deposited data

Results flagged for a closer look

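In the 20 groups of 4 examined (10 genes in the duodenal and the jejunal VSG libraries), 2 held a library far from the other 3 by Dixon's test, and chance flags about 1 in 20 groups. Both were duodenal VSG replicate 1, the lowest of its group for Cldn3, at 12455 normalized counts against 17081 to 17965, and for Cdh17, at 24017 against 42172 to 44695. No explanation was tested. The stem cell markers summed to 2687 CPM in this library, the highest of the 6 duodenal libraries.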

How the results depend on the processing

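No member was called in the main comparisons. Of 310 alternative values of the members' VSG differences, 286 had the same direction and were still not called, and 21 had the other direction. The remaining 3 were jejunal Cldn15, Ocln and Cdh17 without sham replicate 2 (-1.01, -1.04 and -0.64). That fit leaves 1 sham library, which is assumed to vary like the VSG group, so its calls are not taken as a result. Of the 21, 12 began from a difference under 0.2. In the duodenum Cdh1 went to -0.023 with the replicate block and to -0.024, -0.026 and -0.042 without VSG replicate 2, VSG replicate 4 and sham replicate 1 (0.045 at most without 1 library), and Ocln to 0.050 without sham replicate 2 (-1.12 without sham replicate 1). In the jejunum Cldn7 went to -0.12 without VSG replicate 1 and -0.17 without sham replicate 2, Cdh17 to 0.067 with quantile normalization, and Ocln, Cdh17 and F11r to 0.25, 0.11 and 0.29 without sham replicate 1, or 0.28, 0.10 and 0.20 without both libraries that stand apart; without sham replicate 2 F11r was -0.85. In the ileum Cdh1 went to 0.0065 and Tjp1 to 0.049 with each library scaled to the same total, Cdh17 to 0.17 with quantile normalization, Cdh1 to 0.12 without sham replicate 2, Cdh17 and Tjp1 to 0.057 and 0.22 without VSG replicate 4, and Cldn2 to 0.43 without VSG replicate 5; the lowest values without 1 library were -0.33 for Cdh1, -0.34 for Cdh17 and Tjp1 and -1.36 for Cldn2. The cause was not tested.

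The number of genes called over all genes was small and unsteady. In the duodenum it was 4, and 10 with a pseudocount of 10, 43 without the variance trend, and 0 with a mean above 50, with each library scaled to the same total, with an adjusted p under 0.05 or with the replicate block; without 1 library it was 0 to 259, the highest without sham replicate 1. In the jejunum it was 2, and 61 without the trend, 1 at an adjusted p under 0.05 and 0 with the replicate block; without 1 library it was 1 to 2710, the highest without sham replicate 2. In the ileum it was 0, 3 with a pseudocount of 10 and 463 without the trend, and 0 to 631 without 1 library, the highest without VSG replicate 5. For the difference between segments it was 0, 10 without the trend, and 0 to 815 without 1 mouse, the highest without sham replicate 2. The numbers do not pair VSG with sham mice, and same-numbered libraries did not deviate together (correlations of -0.049 and -0.026 in the duodenum and 0.054 and 0.010 in the jejunum).

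Level differences between segments moved with the scale, since the tables have different totals. In the deposited counts the ileal minus duodenal difference (median log2 over mice) was -0.71 for Cldn2, -0.30 for Cldn3, -0.29 for Cldn4, -0.20 for Cldn7, -1.80 for Cldn15, -0.49 for Tjp1, -1.45 for Ocln, -0.70 for F11r, -1.10 for Cdh1 and -0.62 for Cdh17. The ileal minus jejunal difference was -0.28 for Cldn3, -0.15 for Cldn7, -1.51 for Ocln, -0.35 for Cdh1 and -0.48 for Cdh17, and the jejunal minus duodenal difference -0.14 for Cldn7, -0.46 for Cldn15, -0.52 for Cdh1 and -0.21 for Cdh17. With median-of-ratios factors over all libraries the ileal minus duodenal difference was 0.62 for Cldn2, 1.12 for Cldn7 and 0.70 for Cdh17.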
